A study of Mus musculus with 52 samples.

Results

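Bidirectional promoters are stretches of DNA from which a pair of neighboring genes is transcribed outward, each gene on its own strand. In these data, they were taken from the transcript annotation of the deposited tables as pairs of transcripts with different gene symbols, each at least 250 bp wide, whose transcription start sites (TSSs) lay 1 to 1000 bp apart, with the minus-strand TSS on the left. This gave 1508 transcript pairs, or 1210 gene pairs when the pair of transcripts with the shortest distance was kept. The 1210 bidirectional promoters had 2396 genes, 10.4% of the 23043 gene symbols in the tables. Of these genes, 21 were in more than 1 pair, and 15 regions overlapped another. The distance between the TSSs had a median of 163.5 bp (quartiles 86.25 and 306.75 bp). It was at most 100 bp in 361 pairs, at most 250 bp in 811, and at most 500 bp in 1055. Both partners were protein-coding in 855 pairs, 1 partner was in 343, and neither was in 12. For comparison, 18009 one-way promoters were taken from genes with no TSS of another symbol within 5 kb on either strand. Each one-way promoter was given the window length of a bidirectional promoter, with the gap laid upstream of its TSS.

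The marks measured by ChIP-seq were H3K4me1, H3K4me2, and H3K4me3 (1, 2, or 3 methyl groups on lysine 4 of histone H3). All libraries came from 1 immortalized line of mouse embryonic fibroblasts (MEFs), and loxP sites on both MLL2 alleles are thus shared by every group. FC/FC cells had been exposed to tamoxifen for 24 h, which removes MLL2 exons 3–5, and F/F cells had not been exposed to it, so that tamoxifen and genotype cannot be told apart. By the methods of the study, the cells then grew in fresh medium for several more days before harvest, except where it states otherwise. There were 3 libraries per mark and genotype, 18 of the 52 samples in the series, described by the study as independent experiments. No label pairs an FC/FC library with an F/F library. If the libraries of a group share a culture, the p-values measure only the spread between libraries, not between cultures. Tests between promoter classes, or between the sides of a pair, use differences within each library. Their p-values measure how steady these differences are between libraries, not the spread among promoters. The levels over the whole MLL2 transcript do not check the excision. NGS-6282, an FC/FC library of H3K4me2, carries the catalog number of the H3K4me1 antibody on its label.

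The libraries had 31253262 to 38871331 reads in transcripts for H3K4me1 in FC/FC cells, against 26714377 to 30528079 in F/F cells, so that the depths of the genotypes did not overlap for this mark. They did overlap for H3K4me2 (31514831 to 49990775 in FC/FC cells and 36376215 to 48504887 in F/F cells) and for H3K4me3 (31113989 to 33574912 and 29716371 to 48469734, in the same order). The labeled cell type was checked with fixed marker genes: 8 of 10 fibroblast genes had an H3K4me3 level above 1 RPKM, with Twist1 highest (23.2 RPKM), whereas none of the epithelial, hematopoietic, endothelial, or neural markers did.

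At an active promoter, H3K4me3 lies over the nucleosomes that flank the TSS, H3K4me2 extends further, and H3K4me1 lies at the outer flanks and at enhancers. MLL2, the product of Kmt2d, is an H3K4 methyltransferase best known for H3K4me1 and H3K4me2 at enhancers. Many bidirectional promoters are CpG islands without a TATA box, and genes for DNA repair, mitochondrial, and chaperone proteins are often arranged in this way.

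The DNA between the TSSs of 7 well-known pairs is printed here to show how little sequence separates a pair of oppositely directed start sites. Each run is the plus strand of mm10 (the GRCm38 genome of RefSeq), 5′ to 3′, from the base after the minus-strand TSS (left) to the base before the plus-strand TSS (right). Capitals mark matches, on either strand, to the motif TATAAA (as in a TATA box), to CCAAT (the box bound by NF-Y), to CCGGAAG (an ETS-type motif), to GGGCGG (the GC box), to GCATGCGC (part of the NRF-1 motif), or to CAAGATGG (a core of the YY1 motif). Motifs may overlap.
Hspd1/Hspe1 (chr1:55087933-55088147): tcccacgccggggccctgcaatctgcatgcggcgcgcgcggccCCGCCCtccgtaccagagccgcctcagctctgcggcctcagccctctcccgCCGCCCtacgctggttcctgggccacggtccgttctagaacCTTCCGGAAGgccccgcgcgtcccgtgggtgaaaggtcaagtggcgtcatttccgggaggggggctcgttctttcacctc
Col4a4/Col4a3 (chr1:82586850-82586920): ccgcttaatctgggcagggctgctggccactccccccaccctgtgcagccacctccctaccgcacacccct
Brca1/Nbr1 (chr11:101551956-101552106): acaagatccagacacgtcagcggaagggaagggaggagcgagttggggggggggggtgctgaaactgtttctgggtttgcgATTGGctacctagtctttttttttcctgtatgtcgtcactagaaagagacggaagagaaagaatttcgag
Psmb9/Tap1 (chr17:34187331-34187555): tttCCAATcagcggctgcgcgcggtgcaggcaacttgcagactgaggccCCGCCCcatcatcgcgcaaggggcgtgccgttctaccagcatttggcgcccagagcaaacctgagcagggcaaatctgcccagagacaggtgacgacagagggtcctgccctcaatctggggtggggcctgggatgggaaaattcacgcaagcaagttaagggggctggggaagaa
Sirt3/Psmd13 (chr7:140882310-140882393): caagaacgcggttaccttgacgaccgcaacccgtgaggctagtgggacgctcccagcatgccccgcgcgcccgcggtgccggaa
Mrps12/Sars2 (chr7:28741782-28741967): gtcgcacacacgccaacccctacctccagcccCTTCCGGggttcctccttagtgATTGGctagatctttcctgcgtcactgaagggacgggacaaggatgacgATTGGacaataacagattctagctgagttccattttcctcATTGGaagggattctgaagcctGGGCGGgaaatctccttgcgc
Tsc2/Nthl1 (chr17:24632628-24632681): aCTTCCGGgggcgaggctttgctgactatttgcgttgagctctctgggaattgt

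These are the chaperonin genes Hspd1 and Hspe1, the collagen IV genes Col4a4 and Col4a3, Brca1 (a homologous recombination gene) with Nbr1 (an autophagy receptor), Psmb9 (an immunoproteasome subunit) with Tap1 (a peptide transporter of antigen presentation), Sirt3 (a mitochondrial deacetylase) with Psmd13 (a proteasome subunit), Mrps12 and Sars2 (a mitochondrial ribosomal protein and the mitochondrial seryl-tRNA synthetase), and Tsc2 (an inhibitor of mTORC1 signaling) with Nthl1 (a base excision repair glycosylase). The 7 stretches ranged from 54 bp at Tsc2/Nthl1 to 225 bp at Psmb9/Tap1. None held TATAAA. The 215 bp of Hspd1/Hspe1 held 24 CpG dinucleotides at a GC content of 70.2%, and the 71 bp of Col4a4/Col4a3 held 2 CpG at a GC content of 69%. CCAAT occurred 3 times at Mrps12/Sars2, and CCGGAAG occurred at Hspd1/Hspe1, Mrps12/Sars2, and Tsc2/Nthl1.

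The same letters were counted in 300-bp windows centered between the TSSs, or at the matching point of 17995 one-way promoters, and in 32807 promoters of RefSeq of the same length. The median GC content was 63% in bidirectional and 54% in one-way windows, and the median ratio of observed to expected CpG was 0.852 and 0.447. By a GC content over 50% and a CpG ratio over 0.6, 80.2% of bidirectional windows were CpG-rich, against 36.6% of one-way windows. CCGGAAG was found in 27.1% of bidirectional windows, against 7.85% of one-way windows and 8.86% of RefSeq promoters. Among CpG-rich windows, the shares were 31.3% for bidirectional and 15.5% for one-way promoters. TATAAA was found in 4.55%, 13.9%, and 13.6% of bidirectional, one-way, and RefSeq windows, CCAAT in 42.2%, 36.1%, and 37.4%, GCATGCGC in 5.95%, 2.66%, and 2.71%, and CAAGATGG in 4.30%, 2.07%, and 2.11%. GGGCGG was found in 69%, 39.2%, and 35.6%, but within CpG-rich windows it was found in 76.8% of bidirectional and 77.0% of one-way promoters. These are counts of letters, not of bound sites.

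Nearly all bidirectional promoters carried H3K4me3 and H3K4me2 in these cells. A peak of H3K4me3 lay within the region, that is, between the TSSs or within 1 kb of them, in all 6 libraries at 1103 pairs, in 1 to 5 libraries at 21, and in none at 86. Peaks of all 3 marks in all 18 libraries were present at 733 pairs, and 59 pairs had no peak of any mark. Without an H3K4me3 peak in any library, 12 pairs still had H3K4me2 in all 6 libraries, among them Col4a4/Col4a3, the pair of basement membrane collagens, whose H3K4me2 peaks were 1063, 1240, and 1348 bp wide in FC/FC cells and 1028, 1110, and 1150 bp wide in F/F cells. The other collagen IV pair, Col4a1/Col4a2, whose TSSs lie 3 bp apart, had 1 H3K4me3 peak over both TSSs in every library.

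Compared with one-way promoters, the share of regions with an H3K4me3 peak was 92.1% ± 0.365 at bidirectional and 48.3% ± 0.652 at one-way promoters (SD, n = 6 libraries). For H3K4me2, the shares were 94.4% ± 0.135 and 57.2% ± 0.625, and for H3K4me1 81.5% ± 6.06 and 47.0% ± 2.77. The share was higher at bidirectional promoters in 6 of 6 libraries for each mark (p = 0.03125 for each mark in an exact two-sided sign-flip permutation test, the smallest that 6 libraries allow, and 0.03125 after Benjamini-Hochberg adjustment over the 3 marks). The difference in H3K4me1 was 34.5 points over all promoters. It was 3.81 points when only the 1103 bidirectional and 8394 one-way promoters with an H3K4me3 peak in all 6 libraries were compared (87.6% and 83.8%, exact permutation p = 0.0625). Among CpG-rich promoters (970 bidirectional and 6591 one-way), the share with H3K4me3 was 97.0% and 87.7%, and the share with H3K4me1 was 84.7% and 75.9% (p = 0.03125 for both in the exact permutation test).

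**Figure D1:**
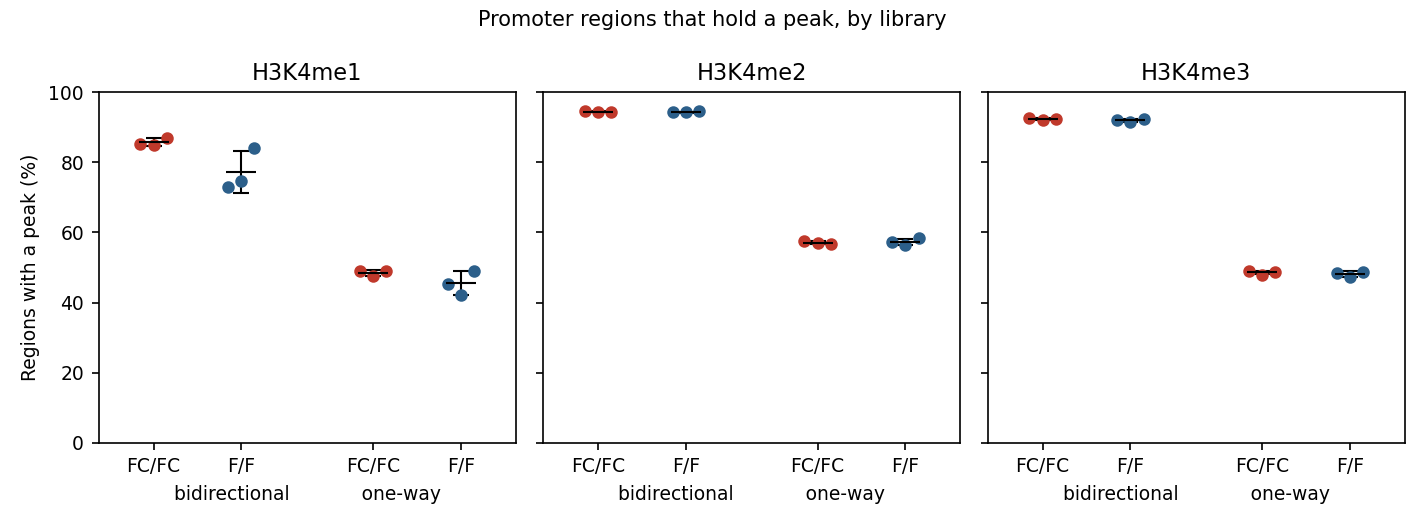
Share of promoter regions that hold a peak (percent), for 1210 bidirectional and 18009 one-way promoters. Each point is a library, with FC/FC in red and F/F in blue, and bars show the mean ± SD of 3 libraries. Bidirectional promoters are above one-way promoters for every mark, and the H3K4me1 shares of F/F libraries run from 73.1% to 84.1%, below the 85.0% to 87.0% of FC/FC libraries.

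The coding class of the partners separated the pairs further. H3K4me3 peaks were found at 96.6% to 96.8% of pairs with 2 protein-coding partners in FC/FC libraries and at 96.6% to 97.0% in F/F libraries. With 1 protein-coding partner, the shares were 81.3% to 83.4% and 79.3% to 82.2%, and at the 12 pairs without one, the share was 50% in every library. The distance between the TSSs made less difference: the mean share over F/F libraries was 90.2% for TSSs at most 100 bp apart, 94.3% for 251 to 500 bp, and 91.2% for 501 to 1000 bp.

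A bidirectional promoter was typically 1 block of H3K4me3 and H3K4me2 with H3K4me1 on both outer flanks. Among regions with a peak of the mark in all 6 libraries, both TSSs lay in 1 H3K4me3 peak at 97.5% ± 0.412 of bidirectional promoters, and the TSS and its matched upstream point did at 91.2% ± 0.849 of one-way promoters. For H3K4me2, the shares were 92.4% ± 0.962 and 88.2% ± 1.36. For H3K4me1, the order was turned round, with 7.65% ± 1.5 at bidirectional and 35.1% ± 4.31 at one-way promoters (SD, n = 6 libraries, p = 0.03125 for each mark in the exact sign-flip permutation test, adjusted p = 0.03125). The lower H3K4me1 share was also found with the H3K4me3-marked promoters alone (6.57% and 30.2%) and with the CpG-rich promoters alone (4.53% and 22.5%), whereas the H3K4me2 difference among CpG-rich promoters was 0.676 points (92.3% and 91.6%, exact permutation p = 0.09375). Even at 501 to 1000 bp between the TSSs, 89.9% to 92.8% of bidirectional promoters had both in 1 H3K4me3 peak, against 99.4% to 99.7% at up to 100 bp.

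**Figure D2:**
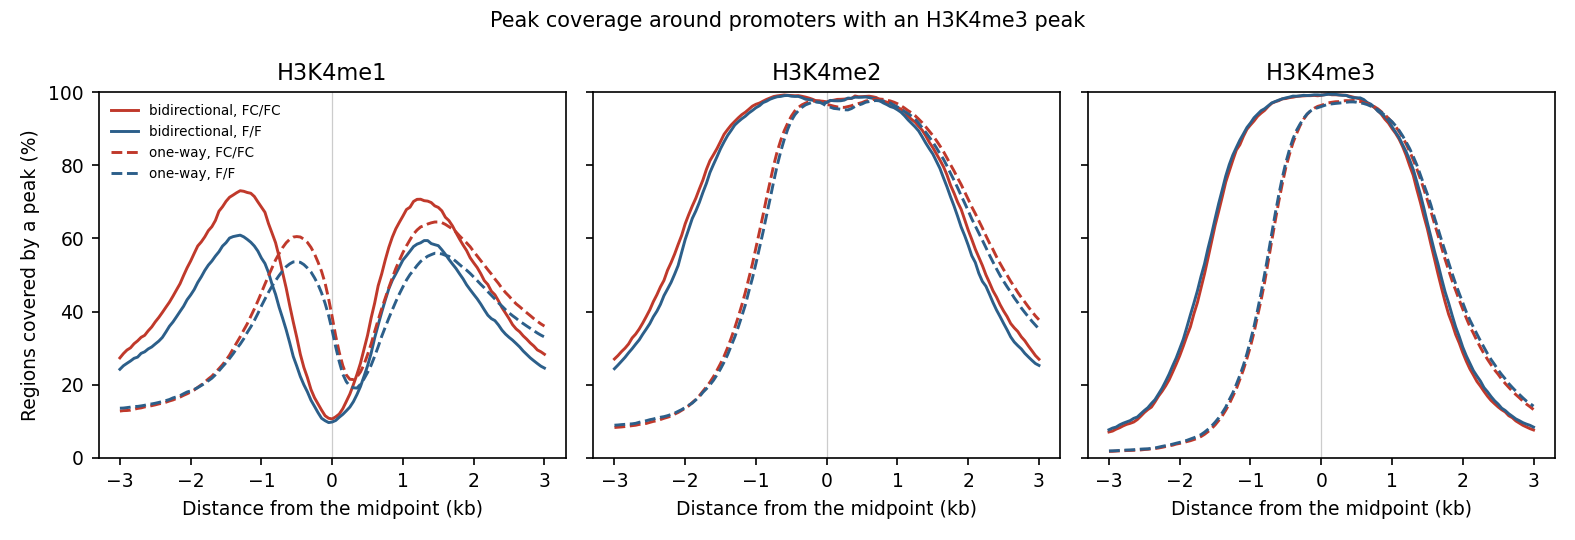
Share of promoters (percent) covered by a peak at each distance from the midpoint of the TSSs (kb), for the 1103 bidirectional promoters (solid) and 8394 one-way promoters (dashed) with H3K4me3 in all 6 libraries. Lines are means of 3 libraries, FC/FC in red and F/F in blue; for one-way promoters, positive distances are downstream. H3K4me1 at bidirectional promoters falls to 10.6% in FC/FC and 9.79% in F/F at the midpoint between a pair of flanking maxima, and H3K4me3 is as wide to the left as to the right.

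The profile across the promoters had the same form on both sides of a bidirectional promoter. At the 1103 H3K4me3-marked pairs, H3K4me3 covered 91.0% ± 2.25 of promoters 1000 bp to the left of the midpoint in FC/FC cells and 91.5% ± 1.21 in F/F cells, and 90.0% ± 2.59 and 90.5% ± 1.99 at 1000 bp to the right (SD, n = 3 libraries each). At one-way promoters, coverage at 1000 bp was 30.5% in FC/FC and 32.1% in F/F upstream but 91.8% and 91.9% downstream. H3K4me1 was lowest at the center of bidirectional promoters, with 10.6% ± 0.842 covered in FC/FC and 9.79% ± 1.42 in F/F, while one-way promoters had 38.5% ± 3.12 and 34.8% ± 4.57 at the matching point. Between the flanking maxima, the one-way minimum lay downstream, with 28.2% and 23.3% covered 500 bp from the midpoint. One-way distances are from the midpoint between the TSS and its matched upstream point, so this midpoint lies upstream of the TSS.

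Peaks over bidirectional promoters were wider. The median width of the widest H3K4me3 peak was 3370 ± 163 bp at bidirectional and 2628 ± 120 bp at one-way promoters, and that of H3K4me2 was 4295 ± 301 bp and 3154 ± 200 bp (SD, n = 6 libraries, p = 0.03125 in the exact sign-flip permutation test, adjusted p = 0.046875 over the 3 marks). For H3K4me1, the widths of 1768 ± 256 bp and 1783 ± 233 bp differed by less than the spread between libraries (exact permutation p = 0.4375). The H3K4me3 width grew with the distance between the TSSs, with means over libraries of 3137, 3425, 3465, and 3738 bp for pairs 1 to 100, 101 to 250, 251 to 500, and 501 to 1000 bp apart.

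How far a peak extended into each gene was measured from the TSS to the outer edge of the peak. Among the 1047 pairs with 1 H3K4me3 peak over both TSSs in all 6 libraries, the median reach was 1557 ± 76.6 bp on the plus-strand side and 1553 ± 86.3 bp on the minus-strand side (SD, n = 6 libraries, exact permutation p = 0.5625). Over both sides, it was 1555 ± 81.9 bp, shorter than the downstream reach at 7892 one-way promoters (1694 ± 71.7 bp) and longer than their upstream reach (896 ± 47.9 bp, p = 0.03125 for both differences in the exact sign-flip permutation test). For H3K4me2, the outward reach of 1990 ± 120 bp and the one-way downstream reach of 1999 ± 118 bp differed by -9.42 bp (exact permutation p = 0.375).

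The authors marked a gene as active in their tables when it had signal above 1 RPKM for γH2AX, RNAPII, and GRO-seq in both genotypes, none of which is an H3K4 measurement. Of the genes of bidirectional promoters, 735 (30.7%) were marked active, against 2674 (14.8%) of the one-way genes. The signal behind this flag was counted with 500 bp added at each transcript end, so partners with close TSSs may share reads. The part of shared reads in this difference was not tested. Both partners were marked in 203 pairs (16.8%), 1 partner in 341 (28.2%), and neither in 666 (55.0%).

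In pairs with 1 active partner, H3K4me3 and H3K4me2 leaned toward that partner. At the 320 such pairs with 1 H3K4me3 peak over both TSSs, the median reach was 1859 ± 94.2 bp into the active gene and 1411 ± 68.0 bp into the other gene, and the active side was the longer in 75% to 79.1% of pairs. For H3K4me2 (295 pairs), the reach was 2499 ± 193 bp and 1816 ± 99.9 bp (SD, n = 6 libraries, p = 0.03125 for both marks in the exact sign-flip permutation test). The median reach was 1704 to 1941 bp for H3K4me3 where both partners were active and 1333 to 1529 bp where neither was. Coverage of the first 2 kb outward told the same of 338 pairs: H3K4me3 covered 87.3% ± 2.23 of the active side and 69.5% ± 2.91 of the other side, H3K4me2 covered 95.4% ± 1.09 and 84.2% ± 2.30, while H3K4me1 covered 52.0% ± 6.62 and 54.7% ± 6.78, lower on the active side by 2.69 points (p = 0.03125 for each mark in the exact sign-flip permutation test). Transcript length was not matched between the partners.

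**Figure D3:**
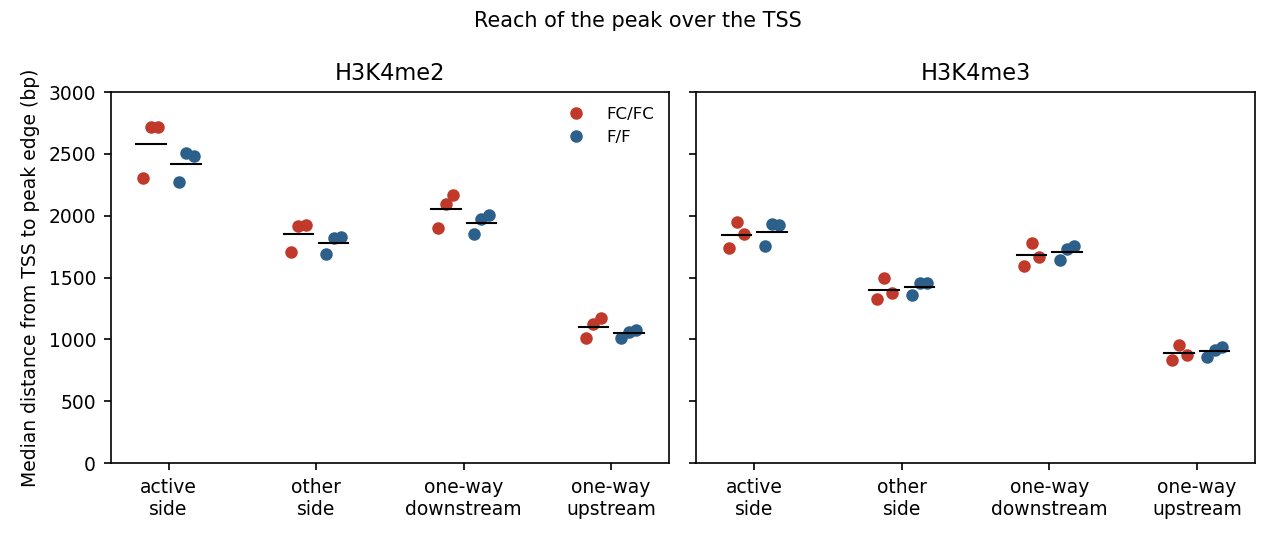
Median distance from the TSS to the outer edge of the peak over it (bp), by library, for H3K4me2 and H3K4me3. The active and the other side are those of bidirectional promoters with 1 partner marked active, beside one-way promoters downstream and upstream; FC/FC libraries are red, F/F libraries blue, and bars are means of 3. For H3K4me3, the active side lies between 1740 and 1953 bp and the other side between 1325 and 1496 bp, with no overlap.

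The question for the genotypes was whether H3K4 methylation at these promoters differs after MLL2 excision. The share of bidirectional promoters with an H3K4me1 peak was 85.3%, 85.0%, and 87.0% in the FC/FC libraries and 73.1%, 74.5%, and 84.1% in the F/F libraries. The FC/FC values lay above all F/F values, with NGS-6293 of F/F close to them. The means were 85.8% ± 1.11 and 77.2% ± 6.01 (SD, n = 3 each), a difference of 8.51 points with an exact two-sided permutation p of 0.1, the smallest that 3 libraries against 3 allow, and an adjusted p of 0.3 over the 3 marks. At one-way promoters, the difference was 2.99 points (exact permutation p = 0.3), and the difference between both effects was 5.53 points (p = 0.1 in the exact permutation test). Among H3K4me3-marked promoters, this difference between the effects was 2.42 points (exact permutation p = 0.3), and among CpG-rich promoters it was 3.36 points (p = 0.2 in the exact permutation test). H3K4me1 depth differed in the same direction between the genotypes, with every FC/FC library deeper than every F/F library, and the part of depth in this difference was not tested. The difference was 14.3 points with peaks of a score of at least 100 and 4.38 points with regions that reach 2 kb beyond each TSS.

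H3K4me2 and H3K4me3 shares were close in both genotypes. H3K4me2 peaks were present at 94.4% ± 0.126 of bidirectional promoters in FC/FC and 94.3% ± 0.143 in F/F, and H3K4me3 peaks at 92.3% ± 0.290 and 92.0% ± 0.424 (SD, n = 3 each, exact permutation p = 0.5 for both marks). The median widths in FC/FC and F/F were 1855 ± 157 and 1680 ± 341 bp for H3K4me1, 4400 ± 397 and 4190 ± 192 bp for H3K4me2, and 3337 ± 208 and 3402 ± 141 bp for H3K4me3, with exact permutation p-values of 0.5, 0.5, and 0.7. These differences were within the spread between libraries. In bulk ChIP, a mark in fewer cells and less of it per cell cannot be told apart.

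The H3K4me1 difference lay at the flanks, not at the center. At the 1103 H3K4me3-marked promoters, H3K4me1 covered 68.5% ± 2.59 in FC/FC and 54.6% ± 8.73 in F/F at 1000 bp to the left of the midpoint, and 66.1% ± 3.69 and 54.1% ± 7.94 at 1000 bp to the right (SD, n = 3 each, exact permutation p = 0.1 for both), but the difference at the midpoint was 0.846 points (exact permutation p = 0.6). An H3K4me1 peak within 2 kb outward was found on both sides of 77.6%, 77.9%, and 81.9% of pairs in FC/FC libraries and of 60.1%, 51.0%, and 75.5% in F/F libraries. On 1 side only, it was found at 17.7% ± 2.30 of pairs in FC/FC and 29.8% ± 8.90 in F/F, and on neither side at 3.17% ± 0.0907 and 7.98% ± 3.48 (exact permutation p = 0.1, n = 3 each). The genotypes did not overlap in any of these shares. At one-way promoters, H3K4me1 coverage at 1000 bp downstream was 56.1% ± 2.85 in FC/FC and 46.7% ± 5.71 in F/F (exact permutation p = 0.1, n = 3 each), so that the flank difference was not particular to bidirectional promoters.

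**Figure D4:**
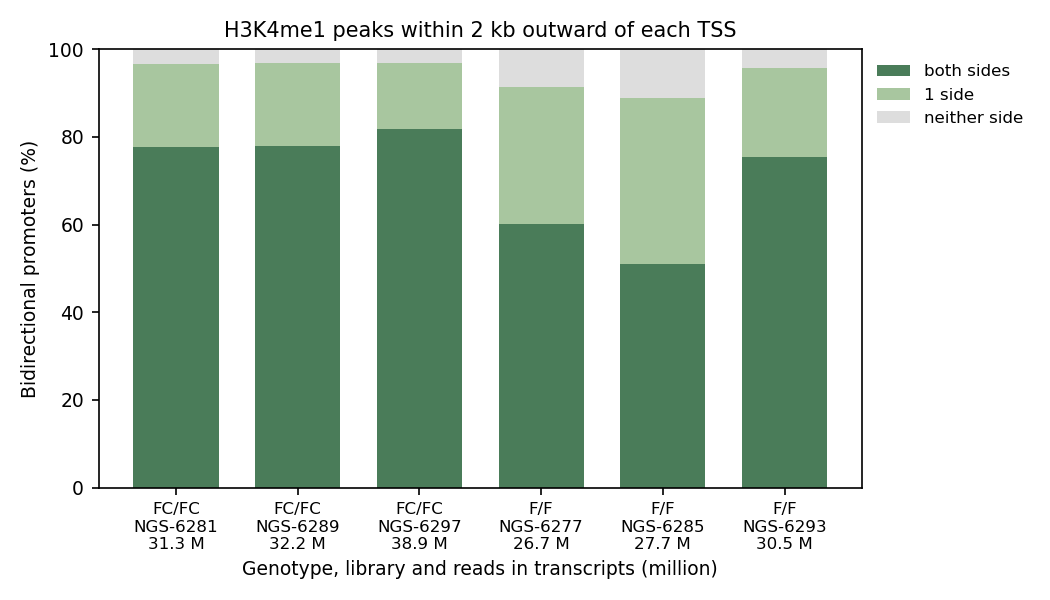
Share of the 1103 H3K4me3-marked bidirectional promoters (percent) with H3K4me1 peaks within 2 kb outward of both TSSs, of 1, or of neither, by library, with the reads in transcripts under each bar. Both sides carry a peak at 77.6% to 81.9% of promoters in FC/FC libraries and at 51.0% to 75.5% in F/F libraries, and all F/F libraries have fewer reads than the FC/FC libraries.

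No bidirectional promoter lost a mark by the strict count of a peak in all 3 F/F libraries and in no FC/FC library. Over one-way promoters, this count gave 0.111% for H3K4me1, 0.117% for H3K4me2, and 0.0333% for H3K4me3. In the reverse direction, 7 bidirectional promoters (0.579%) had an H3K4me1 peak in FC/FC libraries only, against 0.4% of one-way promoters, and none had one of H3K4me2 or H3K4me3, against 0.0833% and 0.0389%. The absence of losses and the share of 0.579% are both near that background.

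Among the 7 were Dok1/Loxl3, 1110059G10Rik/Kif15, 2610316D01Rik/Pcdh10, BC055324/Mettl18, Aldh7a1/Phax, and Mrpl32/Psma2, of which Dok1/Loxl3 and 1110059G10Rik/Kif15 had the highest scores. Dok1 (an adaptor of tyrosine kinase signaling) and Loxl3 (a lysyl oxidase of the matrix) had scores of 3100, 2686, and 990 in FC/FC libraries, but the nearest H3K4me1 peaks of the F/F libraries lay only 50, 129, and 144 bp outside the region. Over whole transcripts, mean H3K4me1 was 3.85 RPKM in FC/FC and 3.78 RPKM in F/F for Dok1 (limma adjusted p = 0.884). For Loxl3, it was 2.72 and 2.62 RPKM (limma adjusted p = 0.617), and the genotypes overlapped for both genes. At 1110059G10Rik/Kif15, the partner of which is a mitotic kinesin gene, the FC/FC scores were 155, 249, and 116, and the nearest F/F peaks lay 7619, 387, and 393 bp away. The MACS score, which grows as the p-value falls, has a minimum of 50 in the deposited lists. The count of 7 was 11 to 15 when NGS-6281, NGS-6289, NGS-6277, or NGS-6285 was left out and 36 without NGS-6293, the F/F library with the most H3K4me1 reads.

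Levels were compared as RPKM, the reads per kilobase of the transcript with 500 bp added at each end scaled to the library's reads in transcripts. Since partners with TSSs less than 1 kb apart share part of this stretch, their values share reads, and since these marks sit at the TSS, the RPKM of a long transcript is low. The median log2(RPKM + 0.1) was 1.62 ± 0.04 for genes of bidirectional promoters and -1.34 ± 0.04 for 17994 one-way genes for H3K4me3, 1.10 ± 0.05 and -0.77 ± 0.05 for H3K4me2, and 0.11 ± 0.04 and -0.39 ± 0.02 for H3K4me1 (SD, n = 6 libraries, p = 0.03125 in the exact sign-flip permutation test for each mark). The median transcript widths were 15642.5 and 16853.5 bp. With genes that had H3K4me3 above 1 RPKM, the H3K4me1 difference of 0.50 became -0.16 (exact permutation p = 0.03125). This value is over whole transcripts, not matched for length, while at H3K4me3-marked promoters the share with an H3K4me1 peak was the higher at bidirectional ones, as given above.

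Between the genotypes, the median over the 1868 genes of bidirectional promoters with H3K4me3 above 1 RPKM was 1.57 ± 0.00413 in FC/FC and 1.49 ± 0.00531 in F/F for H3K4me2, 0.29 ± 0.02 and 0.22 ± 0.02 for H3K4me1, and 2.08 ± 0.03 and 2.07 ± 0.03 for H3K4me3, on the log2 scale (SD, n = 3 each). The H3K4me2 and H3K4me1 libraries did not overlap between the genotypes (exact permutation p = 0.1, adjusted p = 0.15), and the H3K4me3 libraries did (p = 0.6 in the exact permutation test). The one-way genes also had higher medians in FC/FC than in F/F, by 0.06 for H3K4me2 and 0.05 for H3K4me1, and the differences between the effects of both classes were 0.02 for H3K4me2 and 0.02 for H3K4me1 (exact permutation p = 0.1 and 0.2, adjusted p = 0.3). For H3K4me1, the sign at one-way genes depended on which genes were kept: over the 6070 with H3K4me1 above 1 RPKM, the median log2 change was -0.02, with 44.9% positive. With each library centered on its own median, the H3K4me2 difference was 0.03 (exact permutation p = 0.2).

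Gene by gene, 16 of 1777 tested genes of bidirectional promoters (0.90%) passed limma for H3K4me2, with an adjusted p (Benjamini-Hochberg, over the 9976 genes that were tested) under 0.05. Of these, 9 were higher in FC/FC and 7 lower, against 0.591% of all genes higher and 1.55% lower. The share among the members thus lay below that of all genes. For H3K4me1, 0% of all genes were called higher and 0% lower in limma, and none of the 1197 tested genes of bidirectional promoters was called, although the unadjusted p was under 0.05 for 268 of them (22.4%, against 25.0% of all genes). By limma-voom, run on reads recovered from the RPKM, 68 were called, or 5.68% against 5.64% of all genes. Neither count stood above the background when both directions were pooled, but the directions were split differently. Of the 68, 59 were higher and 9 lower, against 240 higher and 243 lower of the 483 called among all genes. At an unadjusted p under 0.05 in limma, 203 of the 268 were higher, against 853 of 2139 among all genes. The cause of this split was not tested. For H3K4me3, 0% of all genes were called in either direction, and none of the 1872 tested genes of bidirectional promoters was called by limma or limma-voom, with 38 (2.03%, against 3.72% of all genes) at an unadjusted p under 0.05. The median log2 change of the tested genes of bidirectional promoters was 0.09 for H3K4me2 (0.07 over all genes tested), 0.05 for H3K4me1 (0.00 over all genes), and 0.01 for H3K4me3 (0.01 over all genes).

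The H3K4me2 count changed with each library that was left out. NGS-6282, the FC/FC library with the H3K4me1 catalog number on its label, deviated from its group mean with an SD of 0.187 on the log2 scale over the genes of bidirectional promoters, against 0.0717 to 0.123 for the other 5 libraries of the mark. Its peaks had the form of H3K4me2: both TSSs lay in 1 peak at 92.3% of bidirectional promoters. The share was 91.0% to 93.8% in the other 5 libraries and 5.91% to 10.2% in the H3K4me1 libraries. Without NGS-6282, 566 of 1767 genes of bidirectional promoters passed (506 higher and 60 lower, 32%), among them all 16, and 2944 of all 9878 genes (29.8%). Without any 1 of the other 5 H3K4me2 libraries, none passed. Centering each library on its median gave 29 calls (4 higher and 25 lower), or 1.63% against 4.36% of all genes (28 higher and 407 lower). Quantile normalization gave 23 (3 and 20), or 1.29% against 3.43%, and limma-voom 35 (6 and 29), or 1.97% against 4.46%, so that the split between higher and lower also depended on the scaling.

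**Figure D5:**
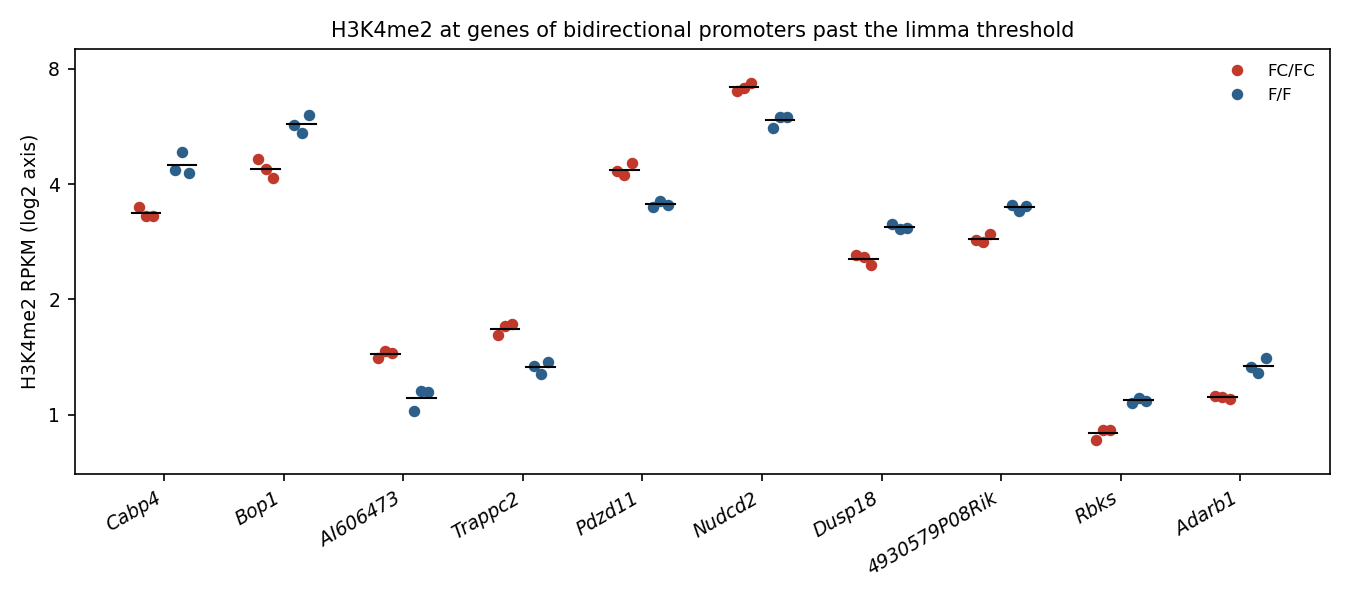
H3K4me2 RPKM (log2 axis) of the 10 genes of bidirectional promoters with the largest change among those past the limma threshold. Points are libraries, with FC/FC in red left of F/F in blue, and bars are means of 3. The genotypes do not overlap for any of the 10, from Cabp4 (3.29 to 3.48 RPKM in FC/FC, 4.28 to 4.85 RPKM in F/F) to Adarb1 (1.10 to 1.12 and 1.29 to 1.41 RPKM).

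Of the 10 with the largest change, 6 had less H3K4me2 in FC/FC. The levels are over whole transcripts, such as 24274 bp for Bop1, 73172 bp for Rbks, and 127547 bp for Adarb1. Where along the transcripts the differences lay was not tested. Cabp4, a calcium-binding protein of photoreceptor synapses, had 3.48, 3.31, and 3.29 RPKM in FC/FC and 4.35, 4.85, and 4.28 RPKM in F/F (log2 change -0.41, SE 0.06, limma adjusted p = 0.0328). Bop1, a ribosome biogenesis factor that shares its promoter with the heat-shock factor gene Hsf1, had 4.66, 4.37, and 4.14 RPKM in FC/FC and 5.71, 5.43, and 6.08 RPKM in F/F (-0.38, SE 0.06, adjusted p = 0.0366). For Hsf1 itself, the log2 change was 0.12 (SE 0.06, adjusted p = 0.203). Dusp18 (a dual-specificity phosphatase), the noncoding transcript 4930579P08Rik, Rbks (ribokinase), and Adarb1 (an RNA-editing adenosine deaminase) fell by 0.27, 0.26, 0.26, and 0.25 on the log2 scale, with adjusted p between 0.0345 and 0.0475. Cabp4 and 4930579P08Rik had no H3K4me2 peak at their promoters in any library, whereas the other 14 called genes had one in all 6.

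The genes with more H3K4me2 in FC/FC among the 10 were AI606473, Trappc2, Pdzd11, and Nudcd2. AI606473, a noncoding transcript opposite the homeobox gene Lhx8, had 1.41, 1.47, and 1.45 RPKM in FC/FC and 1.02, 1.15, and 1.15 RPKM in F/F (log2 change 0.35, SE 0.06, adjusted p = 0.0345). Trappc2, a subunit of a vesicle-tethering complex, had 1.61, 1.70, and 1.73 RPKM in FC/FC and 1.34, 1.28, and 1.37 RPKM in F/F (0.31, SE 0.05, adjusted p = 0.0341). The values of Pdzd11, opposite the kinesin gene Kif4, were 4.32, 4.23, and 4.55 RPKM in FC/FC and 3.49, 3.63, and 3.53 RPKM in F/F (0.29, SE 0.05, adjusted p = 0.0345). The genotypes did not overlap for any of these genes. Nudcd2 changed by 0.28 (SE 0.05, adjusted p = 0.0365), and its partner Hmmr, a hyaluronan receptor with a role in the mitotic spindle, by 0.22 (SE 0.05, adjusted p = 0.0668). The other 6 called genes were Ttll5 (-0.25), Mettl6 (0.25), Cct5 (0.25), Pmpca (0.24), 9930104L06Rik (0.24), and Tsen34 (0.21, with 0.20 for its partner Mboat7, adjusted p = 0.0685). No pair had both partners called.

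Across pairs, the levels of the partners were related, as far as shared reads allow this to be said. Over 1210 pairs, the correlation of the mean log2 levels of the partners was 0.53 for H3K4me3 (Pearson; Spearman 0.45), 0.50 for H3K4me2 (0.41), and 0.55 for H3K4me1 (0.47). The log2 changes of partners that both passed the filter correlated at 0.72 for H3K4me3 (827 pairs), 0.36 for H3K4me2 (732 pairs), and 0.29 for H3K4me1 (395 pairs), although H3K4me3 had no called change. The H3K4me3 value was 0.80 for TSSs at most 100 bp apart (265 pairs) and 0.50 for TSSs over 500 bp apart (88 pairs). The partners share libraries and, at these distances, part of the reads, so the values describe the tables and not coupled regulation.

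The 3 pairs with the highest H3K4me3, among those with both transcripts at least 1000 bp wide, included a splicing, an antioxidant, and an actin gene. Plekhj1 and the splicing factor gene Sf3a2 averaged 53.8 and 23.5 RPKM, the antioxidant gene Prdx5 and Trmt112 (a methyltransferase cofactor) 23.6 and 37.9 RPKM, and the actin gene Actg1 and 0610009L18Rik 43.5 and 17.6 RPKM. The largest differences between partners in the H3K4me3 level followed transcript width. Lrsam1 (36041 bp, a ubiquitin ligase) had 1.34 RPKM and Rpl12 (2334 bp, a ribosomal protein) 40.2 RPKM. The noncoding 2610306M01Rik (1034 bp) had 38.4 RPKM and Aak1 (153711 bp) 0.923 RPKM, and the noncoding 5031425E22Rik (2546 bp) had 38.7 RPKM and Kmt2e (69801 bp), a member of the MLL gene family, 2.15 RPKM.

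Functional groups were unevenly present among bidirectional promoters, against 10.4% of all symbols. Of 69 listed DNA repair genes, 29 (42.0%) were members, a share that is partly fixed by the list, since several were listed as known pairs. Histone genes had 27 of 67 (40.3%), of which 16 pairs had a histone gene on both sides, 15 of them an H2a gene opposite an H2b gene. Mitochondrial ribosomal proteins had 27 of 77 (35.1%), and oxidative phosphorylation genes and assembly factors 27 of 96 (28.1%). Cytosolic ribosomal proteins had 15 of 100, with the kinase gene Rps6kb1 counted among them by its name, the proteasome 6 of 40, zinc finger genes 27 of 371 (7.28%), and noncoding transcripts 366 of 2561 (14.3%).

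The groups differed in level and in the share of active genes. The cytosolic ribosomal protein genes had a median H3K4me3 level of 28.5 RPKM, and 14 of 15 were marked active. The histone genes had 13.7 RPKM, with 24 of 27 active, the mitochondrial ribosomal protein genes 9.07 RPKM, with 15 active, and the oxidative phosphorylation genes 6.62 RPKM, with 10 active. The DNA repair genes had 1.66 RPKM, with 1 of 29 marked active. The levels and the activity flag are over whole transcripts, and the groups were not matched for length. The repair genes Prkdc, Atm, and Brca1 had transcripts of 204374, 99550, and 63192 bp, against 2334 bp for Rpl12. Each of these repair genes had an H3K4me3 peak over both TSSs of its pair in every library. The part of length in the group differences was not tested.

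None of the protein-coding groups had a gene past the limma threshold for any mark. The histone genes had a positive H3K4me3 log2 change in 26 of 26 tested members, with a median of 0.22 (0.01 over all tested genes of bidirectional promoters), and library medians of 3.80 to 4.02 in FC/FC and 3.46 to 3.71 in F/F on the log2 scale, without overlap. With libraries centered, quantile normalized, or tested by limma-voom, the H3K4me3 change was also positive in 26 of 26, with medians of 0.21, 0.19, and 0.20. The median changes were 0.18 for H3K4me2 (27 of 27 positive, but 23 with quantile normalization, median 0.07) and 0.20 for H3K4me1 (20 of 23 positive). Histone genes are near-identical copies of each other, so that reads may be split between them, and neighbors share windows. Median H3K4me2 changes were 0.13 for mitochondrial ribosomal proteins, 0.16 for cytosolic ribosomal proteins, 0.13 for oxidative phosphorylation, and 0.07 for DNA repair, and the H3K4me3 medians of these groups were -0.01, -0.06, -0.01, and -0.03. Among noncoding transcripts, 2 were called for H3K4me2, AI606473 and 4930579P08Rik.

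Single pairs show how these values look side by side. At Hspd1/Hspe1, the chaperonin pair, Hspe1 had 14.6, 15.7, and 16.6 RPKM of H3K4me3 in FC/FC and 14.3, 15.7, and 16.0 RPKM in F/F, and Hspd1 had 6.94, 7.91, and 7.98 RPKM in FC/FC and 7.25, 8.19, and 7.82 RPKM in F/F. The genotypes overlapped for both. Every FC/FC library but only 1 of the F/F libraries had an H3K4me1 peak in the region. H3K4me1 at Hspe1 was 2.31, 2.13, and 2.12 RPKM in FC/FC and 1.82, 1.75, and 1.86 RPKM in F/F, without overlap but not past the threshold (log2 change 0.26, SE 0.05, limma adjusted p = 0.0705).

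The H3K4me2 level of the collagen pair Col4a1/Col4a2 was below the F/F values in every FC/FC library. These levels are over whole transcripts of 114404 bp (Col4a1) and 136459 bp (Col4a2), not at the promoter alone. The H3K4me2 peak over both TSSs was 8501, 9748, and 9709 bp wide in FC/FC and 9119, 10675, and 10456 bp in F/F, with overlap. Col4a2 had 1.42, 1.35, and 1.34 RPKM in FC/FC and 1.62, 1.59, and 1.60 RPKM in F/F (-0.21, SE 0.04, limma adjusted p = 0.0553), and Col4a1 had 1.26, 1.23, and 1.22 RPKM in FC/FC and 1.37, 1.36, and 1.39 RPKM in F/F (-0.14, SE 0.04, adjusted p = 0.0910). Both were without overlap between the genotypes and did not pass the threshold. For H3K4me3 at Col4a1, the genotypes overlapped, with 1.02, 0.966, and 1.15 RPKM in FC/FC and 1.10, 1.01, and 0.987 RPKM in F/F. Col4a4/Col4a3, which lacked H3K4me3 peaks, had at most 0.185 RPKM of H3K4me3 on average at either gene in either genotype.

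At Psmb9/Tap1, the H3K4me2 peak was 3131, 3265, and 3356 bp wide in FC/FC and 2339, 2327, and 2455 bp wide in F/F. The difference lay on the side of Tap1, where the peak reached 1875, 2008, and 2052 bp in FC/FC and 1170, 1183, and 1204 bp in F/F. The H3K4me3 level of Tap1 was 4.96, 4.94, and 5.07 RPKM in FC/FC and 4.29, 4.11, and 4.86 RPKM in F/F (log2 change 0.17, SE 0.07, limma adjusted p = 0.991). This width was chosen after its values were seen.

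Among the pairs with DNA repair genes, Brca1 had 1.13, 1.16, and 1.12 RPKM of H3K4me3 in FC/FC and 1.20, 1.31, and 1.24 RPKM in F/F (-0.12, SE 0.06, limma adjusted p = 0.991). Its partner Nbr1 had 3.74, 4.03, and 3.72 RPKM in FC/FC and 3.78, 4.07, and 4.09 RPKM in F/F (-0.05, SE 0.06, adjusted p = 0.991). The values of Brca1 did not overlap between the genotypes, whereas those of Nbr1 did. Mcm4, a subunit of the replicative helicase, had 4.78, 4.96, and 5.12 RPKM in FC/FC and 4.84, 4.95, and 5.08 RPKM in F/F, and its partner Prkdc, the catalytic subunit of DNA-PK, 0.387, 0.407, and 0.408 RPKM in FC/FC and 0.385, 0.404, and 0.424 RPKM in F/F. The genotypes overlapped for both. H3K4me3 reached further on the side of Mcm4 (1556 to 2031 bp) than on that of Prkdc (1130 to 1298 bp) in all 6 libraries, and Mcm4 is the partner marked active.

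The other named pairs were Atm/Npat, Gart/Son, Sirt3/Psmd13, Mrps12/Sars2, Tsc2/Nthl1, Ndufaf2/Ercc8, and Pdcd10/Serpini1, with TSSs 55 to 852 bp apart. Each had 1 H3K4me3 peak over both TSSs in every library, from 2303 bp at Tsc2/Nthl1 to 5436 bp at Gart/Son (a purine synthesis gene and a splicing cofactor gene). Gart/Son had no H3K4me1 peak in the region in any library. Tsc2/Nthl1, Mrps12/Sars2, Ndufaf2/Ercc8, and Sirt3/Psmd13 had at least 1 H3K4me1 peak in every library. No gene of these 7 pairs passed the limma threshold for any mark.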

How the data were processed

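The authors used CASAVA 1.4 for base calls and BWA 0.7.10 for alignment to mm10. For each library, they deposited RPKM, counted from 500 bp before to 500 bp after each RefSeq transcript, and a list of peaks from MACS 1.4.2 with an H3 library as its control. RPKM were not divided by H3. The score in the deposited peak lists is the p-value of MACS on a negative log10 scale times a constant, with a minimum of 50. Of the other deposited columns, transcript coordinates and width and the authors' activity flag were used. Multiplying RPKM by length gave whole reads for 100% of values within 0.01 read.

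Bidirectional and one-way promoters were found from the TSS in these tables, and a peak was counted with an overlap of at least 1 bp. The members, lists, and tests were chosen with earlier results of these data known. One transcript was kept per gene: that of the pair for members, otherwise the longest. For shares, widths, and medians per library, genotypes were set against each other by an exact permutation test, two-sided (3 against 3 libraries, smallest p 0.1) or, between promoter classes, by sign flips of 6 within-library differences (smallest p 0.03125). For each mark, limma 3.58.1 (mean-variance trend, R 4.3.3) was fitted to log2(RPKM + 0.1) of the genes that exceeded 1 RPKM in 3 or more of 6 libraries. It was also run on simulated libraries with 200 changed genes. The changes set there were larger than those of the called genes. That run thus does not show how well changes of the reported size are found. Fold changes are on this log2 scale. Named genes were well-known pairs of a written list, the 10 called genes with the largest change and no overlap, the 3 highest-scoring gained or lost regions per mark, and the 3 pairs with the highest or most unequal H3K4me3; sequences are of the first 8 pairs of the list with TSSs 50 to 300 bp apart. Some items chosen by these rules are not reported here. Sequences were read from the GRCm38 genome of RefSeq, in whose annotation 98.9% of the matched transcripts overlapped the deposited coordinates. The remaining work was done in Python 3.11.15 (numpy 2.4.6, pandas 2.3.3, scipy 1.17.1, matplotlib 3.10.9). Alternatives were other pseudocounts, filters, scalings, transcripts, peak thresholds, overlaps, distances, and region sets, and leaving out each library. Restriction to H3K4me3-marked or CpG-rich promoters, 2-kb flanks, 1 region per overlapping locus, a score of at least 100 for gained and lost promoters, and genes with H3K4me3 above 1 RPKM were added after seeing the data.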

Additional observations from a re-analysis of the deposited data

How the results depend on the processing

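For 30 results, 181 alternative values with all libraries stayed the same, 4 became weaker, 4 became stronger, 11 counts moved, and 5 values reversed. The same meant an unchanged direction and an unchanged side of the test threshold between promoter classes. Between the genotypes, it meant an unchanged direction and unchanged overlap of the libraries, and for counts a similar number. The H3K4me1 share of bidirectional minus one-way promoters was 2.98 points when a peak had to cover 50% of the region and 3.81 points at H3K4me3-marked promoters. The H3K4me1 width difference was -161 bp with scores of at least 100, and 9.5 and 40 bp, the opposite sign, at H3K4me3-marked and CpG-rich promoters. At CpG-rich promoters, the H3K4me2 difference in both TSSs within 1 peak was 0.676 points. FC/FC minus F/F, the H3K4me2 share was 0.441 points with 50% cover and 0.117 points for coding pairs, and the H3K4me3 share 0.441 points with equal numbers of top peaks and -0.0780 points for coding pairs. H3K4me1 was gained at 18 promoters with top peaks, 18 with scores of at least 100, and 3 with 2-kb flanks, and lost at 1 with top peaks or scores of at least 100; H3K4me3 was gained at 1 with top peaks. The H3K4me1 median of bidirectional minus one-way genes was -0.16 among genes with H3K4me3. With libraries centered on their medians, the FC/FC minus F/F medians were 0.0286 for H3K4me2 and -0.000886 for H3K4me3, and 10 genes were called for H3K4me1 (0.835%, against 1.09% of all genes) and 29 for H3K4me2 (1.63% and 4.36%). Quantile normalization called 10 for H3K4me1 (0.835% and 1.03%), and limma-voom 68 (5.68% and 5.64%) and 35 (1.97% and 4.46%). The causes were not tested.

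Leaving out 1 library, the sign-flip tests cannot go below 0.0625, so that their p says nothing about stability. The class differences then ran from 33.8 to 35.9, 37.0 to 37.4, and 43.7 to 43.8 points in share for H3K4me1, H3K4me2, and H3K4me3, from -28.5 to -26.8, 3.88 to 4.38, and 6.15 to 6.55 points in both TSSs within 1 peak, from 1118 to 1170 bp (H3K4me2) and 727 to 754 bp (H3K4me3) in width, and from 0.49 to 0.51, 1.84 to 1.89, and 2.93 to 2.97 in median log2 level. FC/FC minus F/F, the widths ran from -16.3 bp (without NGS-6277) to 312 bp for H3K4me1, from 69.9 to 437 bp for H3K4me2, and from -172 to 35.8 bp (without NGS-6283) for H3K4me3, the shares from 6.42 to 12.0 (without NGS-6293), 0.0413 to 0.193, and 0.0689 to 0.482 points, and the H3K4me3 median from -0.00577 (without NGS-6287) to 0.0303. Gained promoters ran from 8 to 36 for H3K4me1 (36 without NGS-6293), 0 to 1 for H3K4me2, and 0 to 2 for H3K4me3, lost ones from 0 to 1 for H3K4me1 and H3K4me3, and H3K4me2 calls from 0 to 566. No paired analysis was possible because no label pairs the libraries of the genotypes. Peaks of a library depend on its depth, RPKM cannot separate partners that share reads, and 3 libraries cannot give p below 0.1.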
